A study of Gallus gallus with 8 samples.

Results

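The hypothalami of lean line (LL) chickens aged 7 weeks were compared with those of LL chickens aged 1 week. The comparison used every array of these groups, 4 of LL week 7 and 4 of LL week 1, out of 32 arrays in the study. The other 24 arrays held LL birds of weeks 3 and 5 and fat line (FL) birds of weeks 1, 3, 5 and 7, with 4 arrays in each group. All birds were kept under a standard broiler protocol, and no treatment or genetic alteration is named. LL and FL are the labels' genotypes, and the labels give neither the sex of the birds nor whether 1 sample held 1 hypothalamus or several. RNA of each sample carried the dye Cy3 and was hybridised to a DEL-MAR 14K cDNA array, a glass slide with printed chicken cDNA clones, together with a Cy5-labelled pool of RNA from all samples of both lines. Each value is the log2 ratio of sample to pool, so 0 means as much of a transcript as in the pool, and a difference of 1 between groups is a doubling of the ratio. The pool contained the compared samples themselves. The design text calls the 4 samples of a group biological replicates.

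The hypothalamus governs feeding, growth and the pituitary through small groups of neurons that make peptide hormones. It holds neurons, astrocytes, myelin-forming oligodendrocytes, microglia and vessels. Because whole tissue was used, blood and adjoining pituitary tissue can contribute RNA to every sample.

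The labelled tissue was checked against its markers first. Of 28 feeding-related genes, of neuropeptides and of receptors, 7 had a spot with that name and 4 were bright enough to be tested. These were the peptide genes NMU, POMC and ADCYAP1 and the cannabinoid receptor gene CNR1. POMC, the precursor of the satiety peptide alpha-MSH and of ACTH, was above background on 3 arrays of LL week 7 and 4 of LL week 1, and its log2 difference was -0.04 ± 0.11 (SE). Of the anterior pituitary list, 9 of 11 genes on the array were tested. GH and PRL, the genes of growth hormone and prolactin, were above background on 4 arrays of each group, with log2 differences of 0.04 and 0.11. The 9 pituitary genes had a median log2 difference of 0.00 and ranged between -0.22 and 0.75, and none passed the test.

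The median Cy3 signal of a spot was 3.28, 3.89, 4.47 and 6.29 times the local background on LL week 7 replicates 1 to 4, against 3.83, 4.76, 5.77 and 7.72 times on LL week 1 replicates 1 to 4. The means were 4.48 ± 1.30 and 5.52 ± 1.67 (SD, n = 4 each) and did not differ beyond the spread between arrays (two-sided exact permutation p = 0.371, where 0.0286 is the smallest p possible). The test did not match arrays by replicate number. Signal rose with that number in both groups, and at each number the LL week 7 array was the dimmer. Between 3971 and 8620 clones were above background on an LL week 7 array, against 3896 to 11744 on an LL week 1 array. Quality letters removed 15% to 31.1% of the spots of an LL week 7 array and 14.8% to 23.0% of those of an LL week 1 array. Correlations of log2 ratios over the tested clones lay between 0.15 and 0.53 within LL week 7 and between 0.42 and 0.65 within LL week 1. Across all 496 pairs of the study's arrays the lowest correlation was -0.16 over all clones and -0.38 over the tested clones, and ratios kept their direction, sample over pool, since the dyes are given in the labels.

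The LL hypothalamus at week 7 had lower levels of the globin HBBA and of clones annotated as the kinase STK10 and as unnamed sequence, and higher levels of a clone of the secreted chaperone CLU. In all, 6 of 7541 clones passed limma's test at an adjusted p under 0.05, which is 0.0796% of the clones tested. The count was 2 higher (0.0265%) and 4 lower (0.053%) at week 7. At an unadjusted p under 0.05 there were 727 clones (9.64%), with 463 higher (6.14%) and 264 lower (3.5%), where 377.05 would be expected if no clone differed. This count rested on single arrays: it was 366 (201 higher, 165 lower) without LL week 1 replicate 4, below that expectation, and 1026 (631 higher, 395 lower) without LL week 1 replicate 2. Centring each array on its median instead of the loess curve gave 746 such clones, 622 higher and 124 lower. The 8 arrays of a clone separated completely by age for 266 of 6437 clones with 4 values in each group (4.13%), 141 higher (2.19%) and 125 lower (1.94%) at week 7. The median log2 difference over all tested clones was -0.01 (SD over clones 0.23), and the median standard error of a clone's difference was 0.14.

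HBBA encodes a beta globin, part of the haemoglobin that red cells carry, and it was lower in the older LL birds. Its log2 ratios were -0.51, -0.52, -0.63 and -0.43 on LL week 7 replicates 1 to 4, against 0.36, 0.92, 1.06 and 1.05 on LL week 1 replicates 1 to 4. All 4 arrays of week 7 lay below all 4 of week 1. The difference was -1.37 ± 0.20 (SE), a 2.58-fold lower ratio (adjusted p = 0.00140, limma). Between these ages, HBBA averaged -0.15 ± 0.21 at week 3 (SD, n = 3) and -0.17 ± 0.47 at week 5 (SD, n = 4), so both intermediate means lay below the 0.85 ± 0.33 of week 1 and above the -0.52 ± 0.08 of week 7. The clone was above background on 3 arrays of each LL group.

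Other red cell genes did not pass. HBA1, an alpha-type globin, differed by -0.19 and CA2, a carbonic anhydrase placed in the red cell list, by -0.01. Of 18 genes in the red cell list, 5 had a spot and 3 were tested, all with a negative difference and a median of -0.19. Bulk RNA cannot tell fewer cells of a type from less RNA per cell, here and below.

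**Figure D1:**
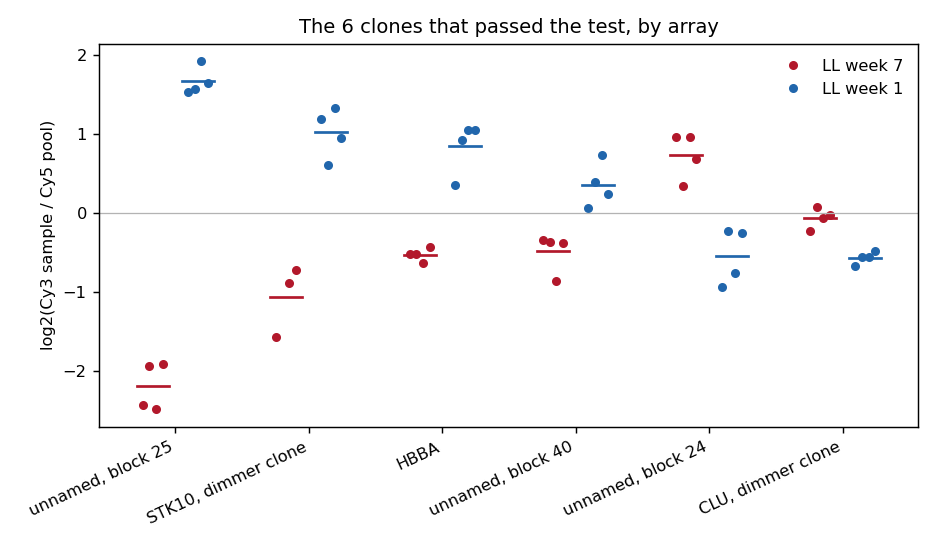
Log2 ratio of sample to pool (vertical axis) for the 6 clones that passed, with 1 point per array and a bar at each mean; red is LL week 7 and blue is LL week 1. In each of the 6 the red and blue points do not overlap, and the widest separation is that of the unnamed clone of block 25, at -1.91 or below in LL week 7 and 1.54 or above in LL week 1.

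The largest fitted difference belonged to a clone with no gene name here, printed in block 25, sub-row 9, column 5 of the slide. Its log2 ratios were -2.43, -1.93, -2.48 and -1.91 in LL week 7, against 1.54, 1.57, 1.92 and 1.65 in LL week 1. No array of LL week 7 measured it above background and all 4 of LL week 1 did, so week 7 gives only a bound. Its level was about 5.42-fold lower or more in LL week 7 than in LL week 1 (bound from the lowest signals above background after Aquantile normalization of the Cy3 channel, open to dye bias since no dyes were swapped). Detection was judged before that normalization, so this bound is approximate. The fitted log2 difference was -3.85 ± 0.34 (SE, adjusted p = 8.40e-08, limma). The means were 1.67 ± 0.17, -0.61 ± 0.28, -1.37 ± 0.49 and -2.19 ± 0.31 at weeks 1, 3, 5 and 7 (SD, n = 4 each). The clone was above background on 4, 3, 2 and 0 arrays at these ages, so the order of weeks 5 and 7 was not measured.

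A clone annotated as STK10, a serine/threonine kinase of lymphocytes, also fell. Its log2 ratios were -1.57, -0.88 and -0.72 on the 3 LL week 7 arrays that gave a value, against 1.19, 0.61, 1.33 and 0.95 in LL week 1. The groups did not overlap, and the difference was -2.08 ± 0.28 (SE, 4.22-fold lower, adjusted p = 2.85e-04, limma). Only 1 array of LL week 7 measured this clone above background, against 3 of LL week 1. The brighter clone of STK10 differed by 0.04 ± 0.28 and was above background on 3 arrays of each group, so the clones of this gene disagreed.

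The STK10 clone was printed in block 28 at sub-row 9 and column 5, the same place that the unnamed clone has in block 25. Clones at this place in the blocks between them were therefore examined after their values were seen. Block 27 held TOP2A, the DNA topoisomerase of dividing cells, with log2 ratios of -0.85, -0.73, -0.18 and -0.25 in LL week 7, against 1.01, -0.30, 1.06 and 0.64 in LL week 1. The second array of LL week 1 lay within the range of week 7, and the difference of -1.11 ± 0.27 did not pass (adjusted p = 0.139, limma). It passed under 3 of 13 other settings and in 2 of 32 fits that left out an array. In FL the TOP2A difference was -1.09 (adjusted p = 0.0396, limma). Block 26 held a dim clone of NFASC, an adhesion molecule of axons, with a difference of -0.37 ± 0.18 that did not pass, while brighter NFASC clones elsewhere gave -0.09 and 0.03. All 4 neighbouring clones thus had a negative fitted difference, and the part of their shared place in these values was not tested.

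CLU encodes clusterin, a chaperone that astrocytes secrete. A clone of it rose, with log2 ratios of -0.23, 0.08, -0.06 and -0.02 in LL week 7, against -0.67, -0.55, -0.55 and -0.48 in LL week 1. All arrays of week 7 lay above all arrays of week 1, and the difference was 0.51 ± 0.09 (SE, 1.42-fold higher, adjusted p = 0.00906, limma). The brightest clone of CLU had -0.19, 0.21, 0.22 and 0.33 in LL week 7, against -0.36, -0.19 and 0.32 on the 3 arrays of LL week 1 with a value. That clone's groups overlapped and its difference of 0.22 ± 0.27 did not pass. Without LL week 1 replicate 1 the CLU call was lost (0.47, adjusted p = 0.0802), as it was without LL week 7 replicate 2 (0.46, adjusted p = 0.0765).

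Among the 7 astrocyte genes tested, CLU included, the smallest p belonged to APOA1, an apolipoprotein of HDL particles. Its brightest clone had 0.11, -0.20, 0.27 and 0.08 in LL week 7, against -0.76, -0.89, -0.70 and -0.16 in LL week 1, and 1 array of each age lay inside the other age's range. The difference of 0.70 ± 0.23 did not pass (adjusted p = 0.420), and the other clone gave -0.19. GFAP, the intermediate filament that marks astrocytes, differed by 0.55 and did not pass. The astrocyte list as a whole had a median of 0.01, with 4 positive and 3 negative differences.

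The remaining calls were unnamed clones. The clone at block 24, sub-row 7, column 15 rose, with 0.97, 0.34, 0.97 and 0.68 in LL week 7, against -0.94, -0.23, -0.76 and -0.25 in LL week 1. Its difference was 1.28 ± 0.24 (SE, 2.44-fold higher, adjusted p = 0.0122, limma), and it no longer passed without LL week 1 replicates 1 or 3 or LL week 7 replicates 1 or 3 (adjusted p 0.0794 to 0.0950). The clone at block 40, sub-row 7, column 18 fell, with -0.34, -0.36, -0.85 and -0.37 in LL week 7, against 0.06, 0.40, 0.73 and 0.24 in LL week 1. Its difference was -0.84 ± 0.14 (SE, 1.79-fold lower, adjusted p = 0.00515, limma). Neither clone's groups overlapped.

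**Figure D2:**
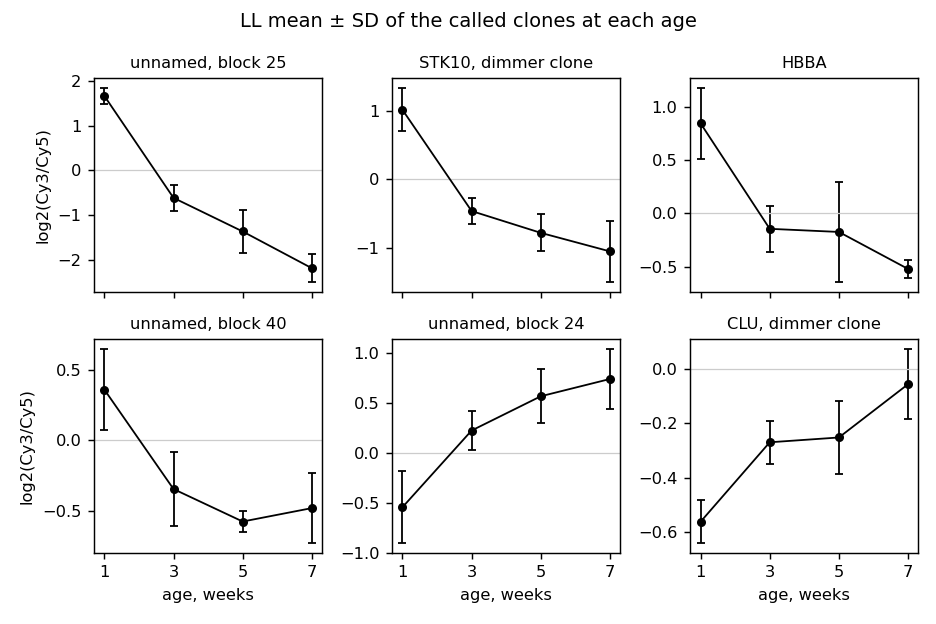
Mean log2 ratio of sample to pool with its SD (vertical axes, each with its own scale) at weeks 1, 3, 5 and 7 (horizontal axis) in LL birds for the 6 clones that passed; n = 4 arrays per point, or 3 for HBBA at week 3 and STK10 at week 7. In all 6 clones the week 3 mean lies on the same side of the week 1 mean as that of week 7, and HBBA, for instance, had means of 0.85, -0.15, -0.17 and -0.52. Choosing the clones by their difference between weeks 1 and 7 largely fixed this side.

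At week 3 each of the 6 clones had a mean between those of weeks 1 and 7. STK10's clone averaged 1.02 ± 0.32, -0.46 ± 0.19, -0.78 ± 0.27 and -1.06 ± 0.45 (SD) in order of age. The clone of CLU averaged -0.56 ± 0.08, -0.27 ± 0.08, -0.25 ± 0.13 and -0.06 ± 0.13 at the same ages. The STK10 clone was above background on only 1 array at each of weeks 5 and 7. The unnamed clone of block 40 had means of 0.36, -0.35, -0.58 and -0.48, lowest at week 5. Steps between ages and the shape of these courses were not tested.

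By gene, with the brightest clone standing for each, HBBA was the only 1 of 3611 genes to pass (0.0277%). At an unadjusted p under 0.05 there were 331 genes (9.17%), 204 higher (5.65%) and 127 lower (3.52%) at week 7. The genes named next are the 12 with the smallest p in each direction. Apart from HBBA none of them passed, and they are given as values.

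Of genes with a positive difference, APOH, a phospholipid-binding protein of plasma, came nearest to the threshold. Its log2 ratios were 0.48, 0.20, 0.31 and 0.29 in LL week 7, against -0.15, -0.06, -0.41 and -0.26 in LL week 1. The groups did not overlap, and the difference was 0.54 ± 0.12 (SE, adjusted p = 0.0873, limma). MNT, a repressor that pairs with MAX and opposes MYC, had -0.06, -0.07, -0.15 and -0.23 in LL week 7, against -0.50, -0.48, -0.43 and -0.67 in LL week 1. Its groups were also apart, with a difference of 0.39 ± 0.09 (adjusted p = 0.0908). SDHD, a membrane anchor of succinate dehydrogenase in the respiratory chain, had -0.08, -0.02, 0.33 and 0.02 in LL week 7, against -0.56, -0.45, -0.66 and -0.28 in LL week 1, again without overlap. Its difference of 0.55 ± 0.14 did not pass (adjusted p = 0.156), although it passed under 6 of 14 other settings.

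PRKDC, the catalytic subunit of the DNA-dependent protein kinase of break repair, differed by 0.55 ± 0.14. ABHD12, a lipase of lysophospholipids and of an endocannabinoid, differed by 0.59 ± 0.16, but its dimmer clone gave -0.52. DOHH, which completes the hypusine residue of a translation factor, differed by 0.41 ± 0.12. FIG4, a phosphoinositide phosphatase, and SNX12, a sorting nexin of endosomes, differed by 0.38 ± 0.12 and 0.65 ± 0.18. TMEM104 had a difference of 0.98 ± 0.23, with -0.04 in its dimmer clone, and TM2D2 had 0.93 ± 0.21 from only 2 arrays of week 7. In LL week 7 TM2D2 was above background on 1 array and SNX12 on 2, against 3 each in LL week 1. TTC17 (0.76 ± 0.22) and LOC396480 (0.39 ± 0.12) completed the 12. Their arrays did not overlap by age in 8 genes, against 2.19% of all clones in this direction, but choosing them by smallest p largely fixed this count. That share covers only clones with 4 values in each group, whereas the 8 genes include TM2D2 with its 2 arrays of week 7.

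Of genes with a negative difference, RPS3, a protein of the small ribosomal subunit, came next after HBBA. Its log2 ratios were -0.13, -0.09, 0.03 and -0.10 in LL week 7, against 0.20, 0.66, 0.16 and 0.36 in LL week 1. The groups did not overlap, and the difference of -0.42 ± 0.09 did not pass (adjusted p = 0.0873, limma), while the other clone of RPS3 gave -0.04 ± 0.11. CYP51A1, the lanosterol demethylase of cholesterol synthesis, differed by -0.29 ± 0.07, with every array of week 7 at 0.02 or below and every array of week 1 at 0.14 or above. ADCY3, an adenylyl cyclase of neuronal cilia, differed by -0.77 ± 0.25, and its week 1 values of 1.41, 0.13, 0.18 and 0.85 were far more spread than those of week 7, -0.22 to -0.05; without LL week 1 replicate 1 the difference was -0.51.

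PSMF1, an inhibitor of the proteasome, differed by -0.45 ± 0.13, and PPT1, a lysosomal enzyme that removes fatty acids from proteins, by -0.40 ± 0.13. EPRS, a tRNA synthetase, differed by -0.43 ± 0.11, but its dimmer clones gave -0.03 and 0.01. PCMT1L differed by -0.81 ± 0.25, with week 7 values between -1.39 and -0.27. PAFAH2, which degrades platelet-activating factor, CRTAC1, a matrix protein, and FRYL differed by -0.37 ± 0.11, -0.32 ± 0.10 and -0.33 ± 0.11, and FRYL by -0.19 without LL week 7 replicate 2. FRYL, EPRS and PAFAH2 were above background on 1, 2 and 2 arrays of LL week 7, against 3, 3 and 4 of LL week 1. TOP2A completed these 12. Arrays did not overlap by age in 9 of them, HBBA included, and overlapped in TOP2A, EPRS and PPT1; over all clones 1.94% did not overlap in this direction, and the choice by smallest p again largely fixed the count.

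**Figure D3:**
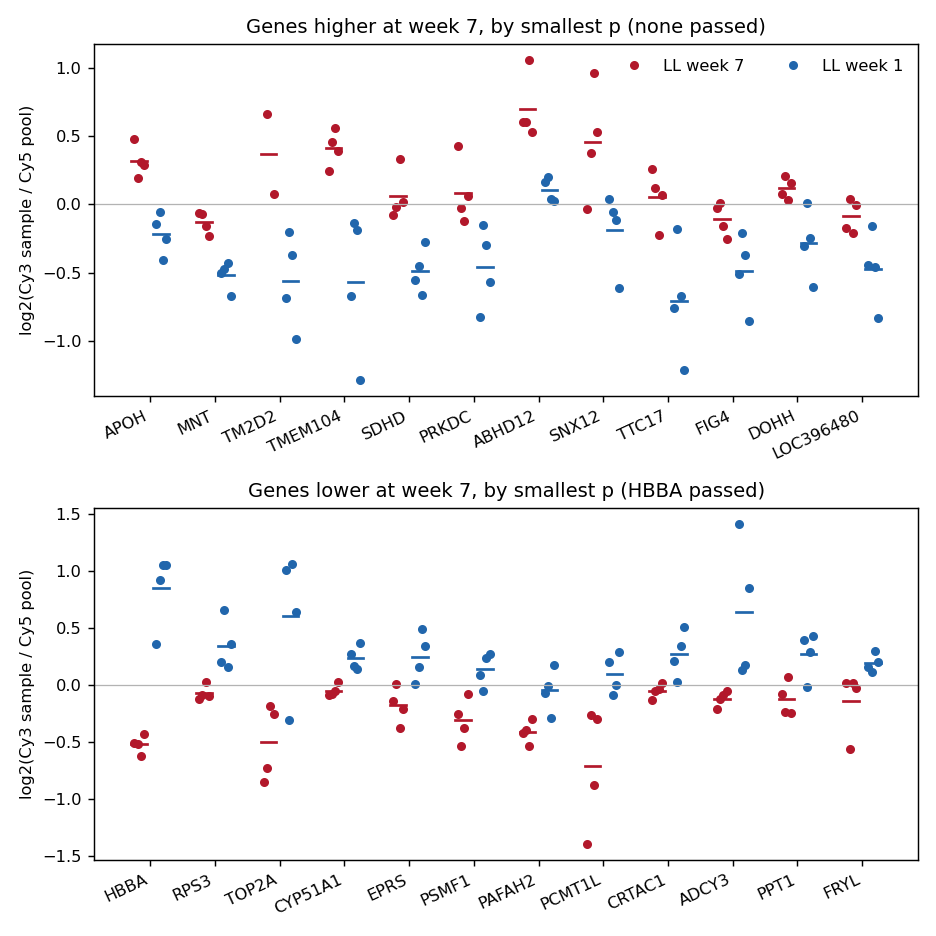
Log2 ratio of sample to pool (vertical axis) by array for the 12 genes with the smallest p among positive differences (top) and among negative differences (bottom), with a bar at each mean; red is LL week 7 and blue is LL week 1, and only HBBA passed the test. APOH lies at 0.20 or above in all 4 arrays of LL week 7 and at -0.06 or below in all 4 of LL week 1, whereas 1 array of TOP2A in LL week 1 lies at -0.30, within the range of week 7.

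Lists of genes by function were read against the share of all genes called, 0.0277%, and the median of all genes, -0.01. Counts of members at an unadjusted p under 0.05 took the brightest clone of each gene and stand against 9.17% of all genes. Besides HBBA, no tested member of any of the 27 lists passed by its brightest clone, while a dimmer clone of CLU did. The counts that follow therefore describe signs and medians of genes that mostly did not differ beyond their error. Members of a list were measured on the same arrays and are not independent, so a count of signs is not a test.

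The 35 cytosolic ribosomal proteins tested, of 43 with a spot, had 27 negative and 8 positive differences and a median of -0.17. In FL the median of these genes was 0.06, and the lists were not tested between the lines. Their array medians lay between -0.13 and -0.01 in LL week 7, against -0.07 to 0.36 in LL week 1, so the groups overlapped. RPS3, RPL21 (-0.39 ± 0.15) and RPS15A (-0.36 ± 0.15) were its 3 members at an unadjusted p under 0.05, and the members ranged between -0.52 and 0.36. Of 20 heat shock proteins and chaperones 16 were negative, with a median of -0.12 (-0.08 in FL). HSPA8, the constitutive HSP70 of the cytosol, differed by -0.48 ± 0.23 in its brightest clone (-0.32 without LL week 1 replicate 4) and by -0.12 and -0.04 in its other clones. The proteasome list had 13 negative and 7 positive members of 20 (median -0.03). Its 3 members at an unadjusted p under 0.05 were positive, namely PSMB7, PSMD3 and PSMD11. PSMB7 differed by 0.47 ± 0.17 (-0.19 in its other clone) and PSMD3 by 0.59 ± 0.26 (0.32 without LL week 7 replicate 3). PSMD11 differed by 0.44 ± 0.21, from 3 arrays of LL week 7 and 2 of LL week 1 whose values overlapped.

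Genes of cell division had mostly negative differences, none of which passed in the main fit, although TOP2A passed under 3 of 13 other settings. Of 14 tested, 11 were negative, with a median of -0.11 (also -0.11 in FL). Their array medians lay between -0.20 and 0.01 in LL week 7, against -0.01 to 0.13 in LL week 1. TOP2A and TYMS, the thymidylate synthase of DNA synthesis (-0.20 ± 0.08), had an unadjusted p under 0.05. The 16 genes of immature neurons and neurite outgrowth were split evenly, 8 positive and 8 negative, with a median of 0.00. STMN1, a microtubule-destabilising protein of growing neurons, had the smallest p of them with -0.52 ± 0.24 in its brightest clone (-0.25 without LL week 1 replicate 4) and -0.60 ± 0.27 in its other clone. None of the 14 myelin and oligodendrocyte genes passed (median -0.06, between -0.24 and 0.56). MBP, a main myelin protein named as a marker, differed by -0.08.

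Peptide genes of the hypothalamus varied around 0. TAC1, the precursor of substance P, had -0.06, -0.04, -0.15 and -0.02 in LL week 7, against -0.33, -0.27, -0.36 and -0.39 in LL week 1. These groups did not overlap, but the difference was small, 0.27 ± 0.09, and did not pass (adjusted p = 0.420, limma). CPE, which trims peptide hormones, differed by 0.50 ± 0.16 in its brightest clone and by -0.26 ± 0.23 in the other. TAC1 and the brightest CPE clone were printed in sub-row 1, whose share of higher clones is given below. The 4 feeding-related genes, the receptor gene CNR1 among them, lay between -0.15 and 0.03. The 8 other peptide and processing genes had a median of 0.01.

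Of the lists on hormones and energy, insulin, growth factor and energy sensing had 8 positive and 2 negative members of 10 and the highest median of the 27 lists, 0.14, with no member at an unadjusted p under 0.05. CRYM, a thyroid hormone binding protein, differed by 0.59 ± 0.21, but 1 array of week 7 stood at 1.43 and the others between 0.07 and 0.13, and without it the difference was 0.25. FKBP5, a co-chaperone of steroid receptors, differed by -0.39 ± 0.18, but by -0.18 without LL week 7 replicate 2 and -0.62 without LL week 7 replicate 3. It was above background on 2 arrays of LL week 7 and 3 of LL week 1. Among 26 genes of oxidative phosphorylation 18 were negative (median -0.06), while SDHD, COX6C (0.63 ± 0.25, from 3 arrays of week 7 and 2 of week 1) and NDUFA2 (0.33 ± 0.14) were positive. NDUFA2 was above background on only 1 array of LL week 7, against 3 of LL week 1. OXCT1, which activates ketone bodies, differed by -0.36 ± 0.15. In cholesterol synthesis, CYP51A1 was negative and NSDHL positive (0.29 ± 0.14), with a median of -0.02 over 13 genes.

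Markers of other cells and remaining groups also did not pass. BLB1, a class II antigen-presenting chain, differed by 0.69 ± 0.23 among 10 microglial and immune genes (7 positive, median 0.07). CD74 of that list differed by 0.40 ± 0.29 in its brightest clone. Another CD74 clone gave 1.03 ± 0.30, at an unadjusted p under 0.05, and did not pass (adjusted p = 0.420, limma). ESAM, an adhesion molecule of endothelium, differed by 0.33 ± 0.15 among 7 vessel genes (median 0.03). AANAT, an enzyme of melatonin synthesis, differed by 0.62 ± 0.23, with 1.28 on the third array of week 7 and at most 0.39 on the others, and 0.35 without that array. ZFHX3, a transcription factor of the suprachiasmatic nucleus, differed by 1.14 ± 0.37 and had 0.81, 2.12, 0.50 and 0.62 in LL week 7, against -0.27, 0.29, 0.14 and -0.66 in LL week 1. Without LL week 7 replicate 2 the ZFHX3 difference was 0.77. VAMP1, a vesicle fusion protein, differed by 0.44 ± 0.18 and GRIA2, an AMPA receptor subunit, by -0.62 ± 0.27. GRIA2 stood at 1.69 on LL week 1 replicate 1, and its difference was -0.28 without that array. By brightest clones, no member of 5 further lists had an unadjusted p under 0.05, and their medians lay between -0.11 and 0.08. These were ion channels, matrix, choroid plexus, oligodendrocyte precursors and the circadian clock. GPC4 of the matrix list differed by 0.29 ± 0.16 in its brightest clone. Another GPC4 clone gave 0.83 ± 0.26, at an unadjusted p under 0.05, and did not pass (adjusted p = 0.420, limma).

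**Figure D4:**
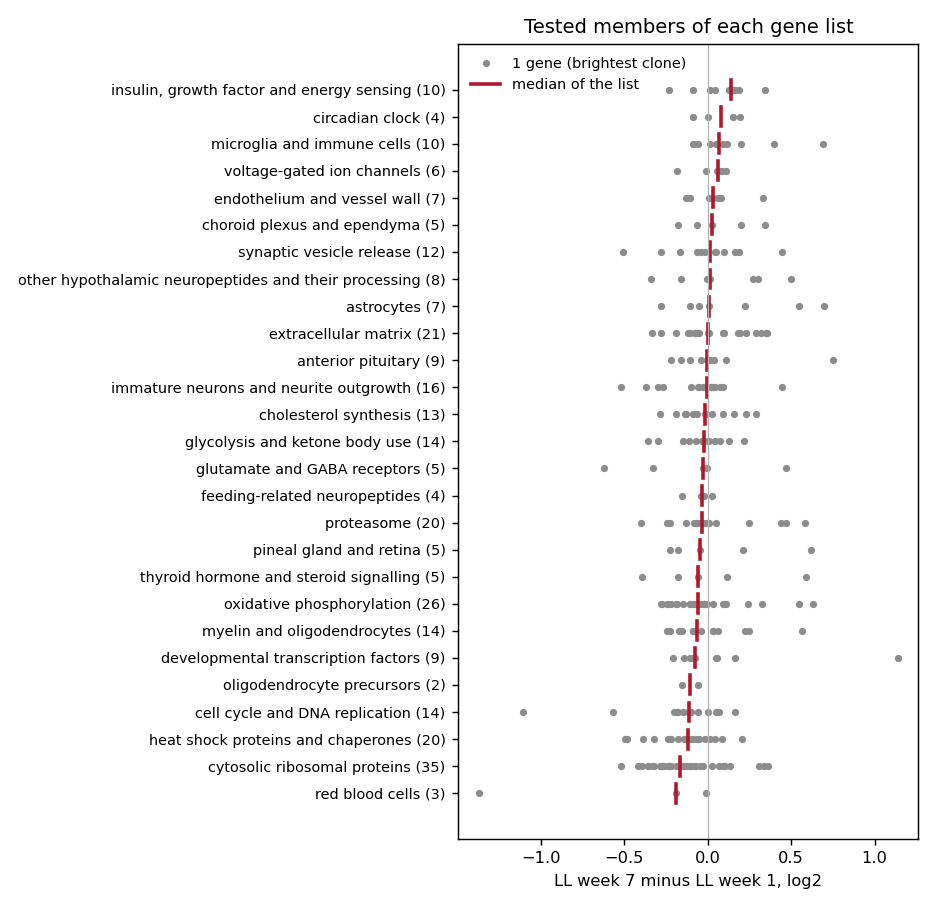
Log2 difference of LL week 7 minus LL week 1 (horizontal axis) for the tested members of 27 gene lists, 1 grey point per gene and a red bar at each list's median; the number tested is in brackets. Medians run from -0.19 for the 3 red cell genes to 0.14 for insulin, growth factor and energy sensing, and HBBA at -1.37 is the only point that passed.

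The same ages were compared in FL, whose samples were on other arrays with the same pool. Both tests came from the same model and share each clone's error estimate, so they are not independent. In FL 79 clones passed (1.05%), 51 higher and 28 lower at week 7, and they included 5 of the 6 LL calls. HBBA differed by -1.37 ± 0.20 in LL and -1.33 ± 0.22 in FL, the unnamed clone of block 40 by -0.84 and -0.90, and the CLU clone by 0.51 and 0.42. The STK10 clone (fitted -2.08 in LL and -1.94 in FL) and the unnamed clone of block 25 (fitted -3.85 and -3.07) were above background on 0 of 4 FL week 7 arrays, so their sizes in the lines cannot be set against each other. The unnamed clone of block 24 differed by 1.28 in LL and 0.69 ± 0.24 in FL, where it did not pass (adjusted p = 0.169, limma). The difference between the lines for that clone, 0.60 ± 0.34, did not pass either.

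**Figure D5:**
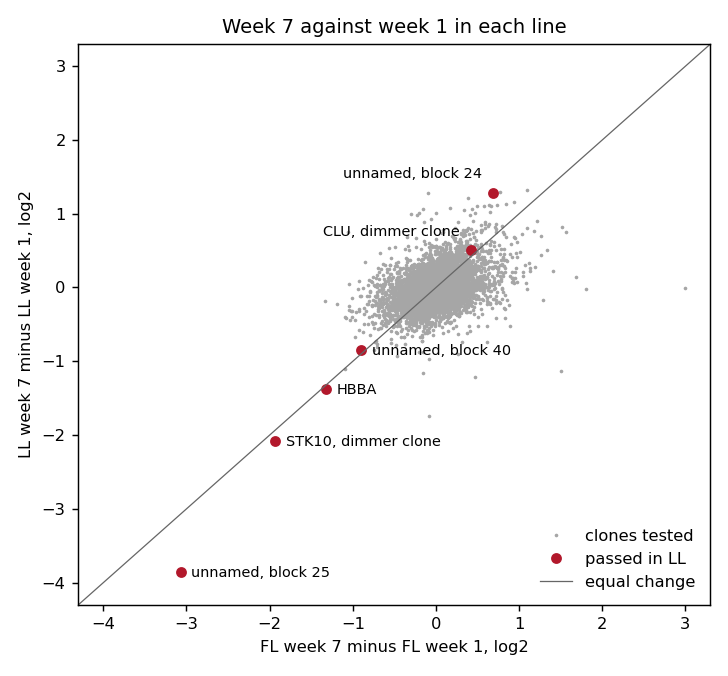
Log2 difference of week 7 minus week 1 in LL (vertical axis) against that in FL (horizontal axis) for the 7541 tested clones (grey) and the 6 that passed in LL (red), with the line of equal change. All 6 have the same sign in both lines, and the unnamed clone of block 25, fitted at -3.85 in LL and -3.07 in FL, lies farthest from the rest and was not above background on any week 7 array of either line.

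Whether a change with age differed between LL and FL was tested directly. In limma 0 of 7541 clones passed, and no adjusted p was below 0.948. An unadjusted p under 0.05 was reached by 301 clones (3.99%), 176 with a higher (2.33%) and 125 with a lower (1.66%) difference in LL. That count and its balance moved with single arrays and settings: 699 (282 higher, 417 lower) without FL week 7 replicate 3, 504 (347 higher, 157 lower) without LL week 7 replicate 3, 189 (107 higher, 82 lower) without LL week 1 replicate 1, and 889 (788 higher, 101 lower) with median centring. Larger numbers of calls in FL than in LL thus do not show that any clone changed more in FL. Of genes, the 5 with the smallest p were the adhesion molecule CADM3 (-0.18 in LL and 0.61 in FL), RPS3 (-0.42 and 0.09), the proton pump subunit ATP6V1B2 (0.07 and 0.97), PLEKHB1 (0.15 and 0.77) and the endocytic protein SGIP1 (0.31 and 1.07), with an adjusted p of 0.948 each. This CADM3 clone was above background on 1 array of LL week 7 and 3 of LL week 1. In FL it was so on 1 array of week 7 and 2 of week 1. The other CADM3 clone had -0.06 in LL and -0.02 in FL, and the other RPS3 clone had -0.04 and 0.06. Across the tested clones, which are not independent replicates, the changes in LL and FL correlated with r = 0.43, a description of values that share the pool and the printed clones.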

How the data were processed

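The deposited array files give, per the file headers, raw and background intensity in both channels, spot area, quality letters and the authors' log2 ratio (normalized Cy3 over Cy5). The sources used here do not name the scanner or how the authors normalized. Raw values were divided by area, since they were taken as sums over a spot's pixels. Whether the raw intensity still contains the local background is not stated, which bears on signal over background and on detection. Spots marked A, X, Y or Z, unsatisfactory per the headers, were left out; letter S, absent from the header key, was kept.

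Background was handled by normexp (offset 50), then ratios by loess within arrays (span 0.3, 4 iterations, the 960 empty spots at weight 0), in limma 3.58.1 and R 4.3.3. Above background means a Cy3 signal over the 95th percentile of the array's empty spots. Spots of one accession were averaged into 17708 clones. A clone was tested if above background on at least 3 arrays of 1 group, with at least 2 values in every group. This left 7541 clones, 4561 of them named, of 3611 genes, with 2.77% of values missing. Names come from the platform annotation and spot names from the array files: the authors' deposited series table, also log2 ratios, matched the arrays by place (64503 of 64503 values within 0.005) but not by name (1775 of 30053).

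One limma model with 8 group means (24 residual degrees of freedom) gave two-sided tests with Benjamini-Hochberg adjustment over all clones. Named genes are the 12 with the smallest p per direction (after those past the threshold), up to 4 members per list with the smallest p, and 5 of the line comparison, each by its brightest clone. Of list members, only those at an unadjusted p under 0.05 are named, a limit added after the values were seen; defining markers (POMC, GH, PRL, GFAP, MBP, red cell genes) are named besides. Members, lists and rules were chosen with earlier results of these data known. Deviations of same-numbered arrays of LL weeks 7 and 1 from their group means correlated with r -0.28, 0.18, -0.33 and -0.05. The main fit did not pair arrays by number. Signal over background also rose with the number in LL week 3 (2.33 to 6.92) and LL week 5 (3.40 to 7.10). Whether same-numbered arrays share a batch or a pairing was not tested. Alternatives were other background and normalization methods, filters, weights, fits and leaving out each array. The number of arrays limits precision.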

Additional observations from a re-analysis of the deposited data

Results flagged for a closer look

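In 4 of 108 groups of 4 arrays checked, over the clones named and the array signal, 1 array stood apart from the other 3, where chance sets apart about 1 in 20 groups (5.4 here). All 4 were arrays of LL week 7. The unnamed clone of block 40 had -0.85 on LL week 7 replicate 3, against -0.37 to -0.34 on the others, and all 4 lay below the LL week 1 arrays. ABHD12 had 1.06 on LL week 7 replicate 3, against 0.53 to 0.61. CRYM had 1.43 on LL week 7 replicate 2, against 0.07 to 0.13. FRYL had -0.56 on LL week 7 replicate 2, against -0.02 to 0.02.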

How the results depend on the processing

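HBBA passed under all 13 other settings that tested it and without each of the 32 arrays (log2 -1.53 to -0.98), as did the unnamed clone of block 25 under the 12 settings that tested it. Of the 53 named clones recomputed under the alternatives, none changed sign. Choosing these clones mostly by small p largely fixed this, and leaving out an array of another group cannot change their differences. Marker genes and other clones given as single values were not among the 53. Array weights gave 1380 clones at an unadjusted p under 0.05 for age and 830 for the line difference. These were 1238 and 661 with no filter on dim clones, and 354 and 74 with the stricter filter. Array weights gave 148 clones (115 higher, 33 lower) and 66 genes, the 6 calls among them; LL week 7 replicate 4 had the highest weight of 32, 3.49, and LL week 3 replicate 1 the lowest, 0.21. Clone counts were 13 without background subtraction and 13 with the authors' ratios, 10 with loess by block, 1 with the stricter filter, which tested only 1 of the 6, and 2 with only the 8 LL arrays of weeks 1 and 7, HBBA and the clone of block 25; gene counts were 4, 5, 4 and 0 for the first 4, 2 with median centring, 2 with array signal as a covariate and 3 by any clone (HBBA, STK10 and CLU). The replicate block gave 9 clones and 2 genes, and 847 clones at an unadjusted p under 0.05 for age. Leaving out 1 array gave 4 to 11 clones and 1 to 4 genes, the most without FL week 1 replicate 2 (11) and FL week 3 replicate 3 (10), which entered only the error estimate. For the line difference it gave 0 to 1 clones. With only the 8 arrays STK10's clone had an adjusted p of 0.0677, CLU's and the block 40 clone 0.404, and that of block 24 0.272. Median centring gave a median line difference of 0.14 over all clones, against 0.03 with loess, and lost the block 40 clone (adjusted p = 0.192). Of 1240 list medians recomputed, 37 moved by more than the spread between arrays, in 16 of the 27 lists. The 1240 include fits without an array of another group, which cannot move an LL median. Weak signal limits dim clones: 107 tested clones were above background on no array of LL week 7 and 2 on none of LL week 1.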

Other observations

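Clones at an unadjusted p under 0.05 were unevenly spread over the 19 sub-rows in which they were printed, of which those at the extremes were chosen after their values were seen. Of 640 clones tested in sub-row 16, 2.34% were higher and 8.13% lower in LL week 7, while of 328 in sub-row 7, 11.6% were higher and 4.57% lower, and of 401 in sub-row 6, 10.7% were higher and 1.75% lower. With loess fitted in each block these shares of higher clones were 2.97%, 13.1% and 10.2%. Over all clones 6.14% were higher and 3.5% lower. The 48 blocks differed too, as in 2 picked after their values were seen. In block 36, 23 of 178 clones were higher (12.9%) and 2 lower (1.12%). In block 11, 4 of 142 were higher (2.82%) and 13 lower (9.15%). With loess fitted in each block the counts were 15 higher and 11 lower in block 36, and 8 and 5 in block 11. Of the 12 genes with the smallest p among positive differences, TMEM104, TM2D2, FIG4 and LOC396480 were printed in sub-row 1, where 9.12% of 570 clones were higher. By their brightest clones, TAC1, CPE, ESAM and PLEKHB1, also positive, and PSMF1, negative, were printed in that sub-row too. By block, SDHD, TMEM104 and LOC396480 were in block 40, and FIG4, SNX12 and TM2D2 in block 43. None of the 12 genes named among negative differences was printed above block 31. The part of clone source and of printing in this was not tested.

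Brighter clones had more small p-values. Of the 1886 brightest clones 9.54% were higher and 5.14% lower at an unadjusted p under 0.05, against 3.87% and 3.29% of the 1885 dimmest.

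OASL, an interferon-induced gene named after its value was seen, had the only call of a difference between the lines in any fit, and only without FL week 1 replicate 2 (2.09, adjusted p = 3.55e-05, limma), against 0.97 (adjusted p = 0.948) with that array.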
